A study of Homo sapiens with 6 samples.

Results

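The RASSF (RAS-association domain family) genes were examined in RNA-seq data from human cells that the labels call G361 melanoma, with LD611 as their source name. Melanocyte markers other than MITF were low or absent and epithelial keratins abundant, so the identity of the cells is in doubt. The family was defined by name as RASSF1 to RASSF10, and all 10 genes are among the 21494 genes of the deposited table. Of the 6 samples, 3 carry a control shRNA (Control sh, genotype WT in the labels) and 3 an shRNA against DCAF1, the gene of VprBP (VprBP sh, genotype DCAF1 Knockdown). Per the study's methods, shRNAs were delivered by lentivirus and infected cells were selected with puromycin. VprBP is the substrate receptor of a CUL4 ubiquitin ligase that the study describes also as a histone H2A kinase, and the comparison asks which genes change when it is depleted. The labels do not say whether replicates are separate cultures, so p-values measure the spread between these samples, which may be technical.

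RASSF proteins are scaffolds without enzymatic activity that carry a domain able to bind RAS-type GTPases. RASSF1 to RASSF6, the C-terminal members, have this domain near their C-terminus, followed by a SARAH domain through which they bind the MST kinases of the Hippo pathway. RASSF7 to RASSF10, the N-terminal members, carry it near the N-terminus and lack the SARAH domain. Several members are regarded as tumor suppressors, and RASSF1 is a textbook case of a gene silenced in tumors by methylation of CpG-rich promoter DNA.

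Total counts ran from 18195949 to 26883948 per sample and overlapped between the groups. For DCAF1 itself, Control sh counts of 688, 893 and 884 stood against 681, 488 and 628 under VprBP sh (log2 fold change -0.58 ± 0.17, standard error or SE, edgeR adjusted p = 0.0125), and VprBP sh replicate 1, with 760 normalized counts, lay just under the lowest Control sh value of 797. The fall of DCAF1 was 1.49-fold, under the 2-fold cutoff used for calls below, so DCAF1 was not called. Of 8 melanocyte markers, 4 (SOX10, TYR, DCT and S100B) are not listed among the genes analysed, and MLANA and TYRP1 had at most 5 counts in any sample. PMEL had 28 to 46 counts and MITF 154 to 312. The summed level of the list, most of it MITF, ranged over 199 to 236 normalized counts for Control sh and over 244 to 308 for VprBP sh. The 9 basal epithelial and urothelial markers were all listed and gave sums of 191233 to 210000 for Control sh against 36626 to 40672 for VprBP sh. KRT5 and KRT14 carried most of the Control sh sum, while GATA3 and EPCAM were higher after the knockdown. GATA3 had 0 to 8.11 normalized counts for Control sh against 1386 to 1764, and EPCAM 4406 to 4522 against 5744 to 6625. The other markers of this list were all lower in VprBP sh, and some were nearly or fully lost. KRT14 had 62464 to 86797 counts for Control sh against 1 to 10 for VprBP sh. TP63 had 7670 to 8806 counts against 8 to 13, and UPK1B 500 to 709 against 0 in every VprBP sh sample. The share of mitochondrial genes was 1.96% to 1.98% for Control sh against 4.10% to 4.48% for VprBP sh. These shifts go with the groups, and their part in the RASSF results was not tested. Whether the groups differ in the identity of their cells was not tested either. In both groups replicate 1 differed from the other samples more than replicates 2 and 3 did from each other, with a chi-square per degree of freedom of 17.6 to 29.1 against 2.36 to 2.50.

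The RASSF genes did not move in 1 direction between the groups. RASSF1 and RASSF2 rose, by 3.74-fold and 8.07-fold, while RASSF4, RASSF6 and RASSF10 fell. The other 5 members shifted by less than 2-fold, RASSF9 upward and RASSF3, RASSF5, RASSF7 and RASSF8 downward. Calls required more than a 2-fold change along with an adjusted p below 0.05 in edgeR's quasi-likelihood test. By this rule 5 of the 10 members were called, where 46.4% of the 16756 genes tested were, with 2 members up (24.5% of genes) and 3 down (22% of genes). With the p-value cutoff alone all 10 members passed, against 76.4% of genes, with 3 higher (40.4% of genes) and 7 lower (36% of genes). Normalized counts of the groups were separate for all 10 members, against 79.5% of genes, with 3 above (42.2% of genes) and 7 below (37.3% of genes). The shares of members up were under those of all genes, and the shares down were over them. Since the members were chosen with results known and number only 10, nothing particular to the family is read from these shares. The median log2 fold change of the members was -0.82, where that of all genes tested was 0.08, and the median absolute log2 fold change was 1.27 against 0.92. All 10 members passed the filter on low counts, RASSF2 through its VprBP sh values and RASSF4 through its Control sh values.

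**Figure D1:**
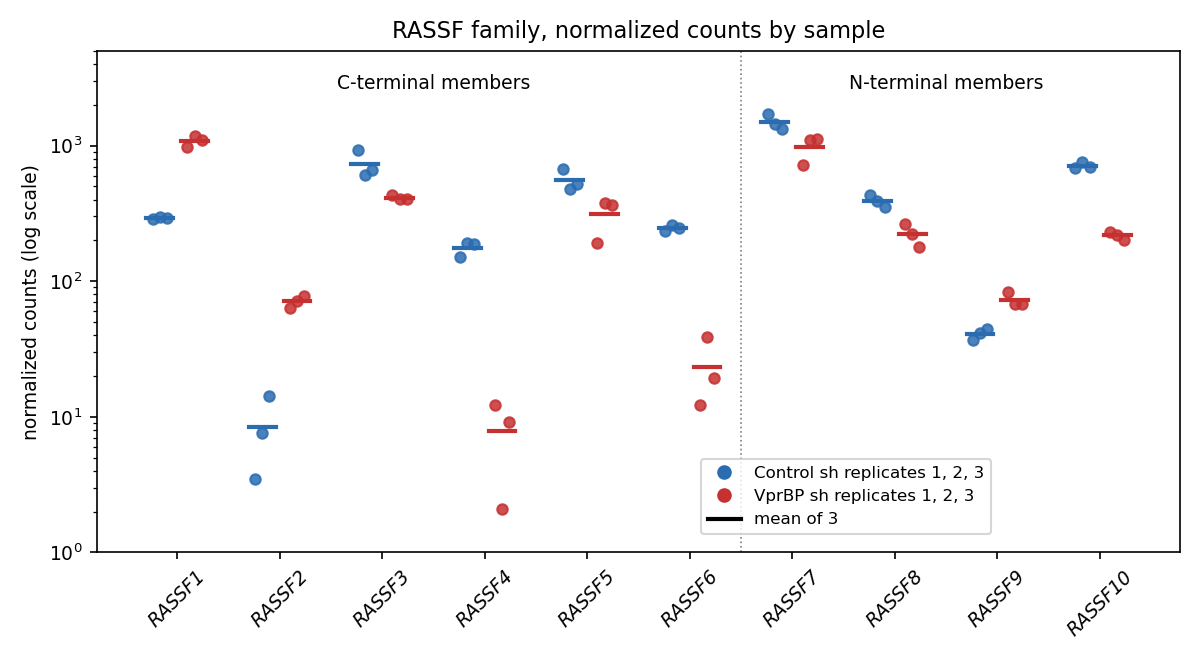
Normalized counts of the 10 RASSF genes on a log axis, with a point for each of the 3 Control sh samples (blue) and the 3 VprBP sh samples (red) and a line at each mean. The red points lie above the blue ones for RASSF1, RASSF2 and RASSF9 and below them for the other 7 members.

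The promoter stretches of the called members other than RASSF10 are shown here because the family is known for silencing at CpG-rich starts. Members that rose and members that fell are not compared for this feature. The starts shown are of unlike kinds, an inner start alone for RASSF2 and MANE Select starts for RASSF4 and RASSF6. Of the 10 members, 7 have an entry in the RefSeq promoter set (GRCh38.p14, 250 bases before to 50 bases after a transcript start). RASSF7, RASSF8 and RASSF10 have none. For RASSF1, the RefSeq entry is an inner start, and the stretch around the start of the MANE Select transcript was read from hg38 at the same offsets. The RASSF2 entry is also an inner start, and other starts of RASSF2 were not analysed here. The RASSF4 entry is at its MANE Select start. For RASSF6, which has 2 entries, the one at its MANE Select start is shown. Each sequence reads 5′ to 3′ on the strand of the gene, with every CG dinucleotide in capitals.
RASSF1, inner start, chr3:50337401-50337700, minus strand: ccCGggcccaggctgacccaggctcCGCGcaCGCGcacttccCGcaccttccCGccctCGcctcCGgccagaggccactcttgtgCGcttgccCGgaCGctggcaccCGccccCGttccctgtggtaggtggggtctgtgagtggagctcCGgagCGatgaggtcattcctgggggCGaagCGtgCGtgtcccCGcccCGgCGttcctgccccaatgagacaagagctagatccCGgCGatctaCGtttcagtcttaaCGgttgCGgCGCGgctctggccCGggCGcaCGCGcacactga
RASSF1, MANE Select start, chr3:50340787-50341086, minus strand: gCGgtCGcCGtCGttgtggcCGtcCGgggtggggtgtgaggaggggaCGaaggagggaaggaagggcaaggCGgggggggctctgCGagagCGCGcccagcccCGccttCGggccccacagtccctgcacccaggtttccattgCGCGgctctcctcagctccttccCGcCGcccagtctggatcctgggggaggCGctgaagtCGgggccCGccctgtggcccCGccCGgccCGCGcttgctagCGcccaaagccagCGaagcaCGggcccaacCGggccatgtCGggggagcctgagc
RASSF2, inner start, chr20:4815098-4815397, minus strand: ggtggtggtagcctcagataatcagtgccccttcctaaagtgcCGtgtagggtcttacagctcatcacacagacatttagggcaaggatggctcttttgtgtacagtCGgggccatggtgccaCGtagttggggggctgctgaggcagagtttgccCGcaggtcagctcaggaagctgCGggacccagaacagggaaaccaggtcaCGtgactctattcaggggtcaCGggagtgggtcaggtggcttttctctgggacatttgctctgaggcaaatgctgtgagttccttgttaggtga
RASSF4, chr10:44959552-44959851, plus strand: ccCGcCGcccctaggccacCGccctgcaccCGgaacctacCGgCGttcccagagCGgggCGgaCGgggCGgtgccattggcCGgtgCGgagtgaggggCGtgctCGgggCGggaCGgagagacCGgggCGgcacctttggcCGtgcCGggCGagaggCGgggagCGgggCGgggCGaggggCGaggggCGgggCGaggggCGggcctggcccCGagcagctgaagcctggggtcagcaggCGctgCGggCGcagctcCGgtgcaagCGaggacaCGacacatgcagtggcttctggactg
RASSF6, chr4:73620387-73620686, minus strand: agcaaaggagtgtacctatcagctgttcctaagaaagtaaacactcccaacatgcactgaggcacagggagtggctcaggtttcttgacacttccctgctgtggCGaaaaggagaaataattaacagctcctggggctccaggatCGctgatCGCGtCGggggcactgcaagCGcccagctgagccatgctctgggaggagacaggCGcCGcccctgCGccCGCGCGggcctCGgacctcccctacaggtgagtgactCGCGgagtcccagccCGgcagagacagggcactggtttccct
The inner and MANE Select starts of RASSF1 held 33 and 29 CG dinucleotides, numbers that 17.2% and 24.2% of the 35116 promoters of the set reach. RASSF4, which fell, held 36, reached by 12.7% of promoters. RASSF2, which rose, held 7 at its inner start, and RASSF6, which fell, held 16, where the median promoter has 14. The letters GGGCGG, searched on both strands, occurred 3 times at each RASSF1 start, 9 times at RASSF4 and 1 time at RASSF6, and not at the inner start of RASSF2, while 44.95% of all promoters hold them. Methylation was not measured, and the transcript starts in use in these cells are not known from gene-level counts.

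RASSF1 encodes a microtubule-associated scaffold that activates MST kinases and restrains the cell cycle. The Control sh samples had 246, 273 and 306 counts, and the VprBP sh samples 873, 1134 and 1443. After scaling for depth these were 291 ± 5.84 (SD, n = 3) and 1086 ± 103 (SD, n = 3) normalized counts, so the lowest VprBP sh sample, at 975, lay far above the highest Control sh sample, at 297. The log2 fold change was 1.90 (SE 0.11, edgeR adjusted p = 2.41e-07). RASSF1 (ENSG00000068028.18) spans 50329782 to 50340980 on the minus strand of chromosome 3, with 1.05 Mb between it and DCAF1. Its isoforms, which start at separate promoters, are summed in the deposited counts.

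A lncRNA gene on the opposite strand, RASSF1-AS1, shares 659 exonic bases, or 17.9% of the exonic length of RASSF1, with it. RASSF1-AS1 had 5, 0 and 0 counts without the knockdown and 12, 13 and 24 with it. It was called higher (log2 fold change 3.02 ± 0.81 SE, edgeR adjusted p = 0.0068), on 5 Control sh counts that all came from replicate 1. Without that replicate the gene is at 0 counts in Control sh and was still called higher, with a fitted log2 fold change of 6.98 (edgeR adjusted p = 0.000758) that depends on the prior count and gives no size, and without Control sh replicate 2 or 3 the log2 fold change was 2.46 or 2.38. The labels and the methods name different library kits, and no source used here says if strand entered the counting, so reads of RASSF1 and RASSF1-AS1 cannot be told apart in the shared bases. RASSF1-AS1 had at most 24 counts in a sample where RASSF1 had 1443.

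RASSF2 encodes a partner of the MST kinases. It was nearly off in Control sh, with 3, 7 and 15 counts, and had 57, 69 and 101 counts in VprBP sh. The normalized counts were 8.44 ± 5.42 (SD, n = 3) and 70.9 ± 6.92 (SD, n = 3), with no overlap. The log2 fold change was 3.01 (SE 0.39, edgeR adjusted p = 6.6e-05). From the summed counts of 25 and 227, the depth-scaled ratio was 8.15 with a 95% exact interval of 5.38 to 12.9, which covers counting error only. Control sh replicate 3 held most of the counts of its group, and without it the log2 fold change was 3.63. RASSF2 (ENSG00000101265.16) spans 4780023 to 4823608 on the minus strand of chromosome 20. Although RASSF2 had the larger fold change of the 2 members that rose, its level in VprBP sh remained far under that of RASSF1.

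RASSF4 encodes a RAS-binding scaffold and showed the largest change of the family. Against 130, 177 and 197 counts in the controls, the VprBP sh samples had 11, 2 and 12, or 177 ± 22.6 and 7.85 ± 5.23 normalized counts (SD, n = 3). Every VprBP sh sample was far under every Control sh sample. The log2 fold change was -4.46 (SE 0.37, edgeR adjusted p = 2.87e-06), and the summed counts of 504 and 25 gave a Control sh level 22.5 times that of VprBP sh (95% exact interval 15.0 to 35.1, counting error only). RASSF4 (ENSG00000107551.21) spans 44959407 to 44995891 on the plus strand of chromosome 10, and 695 of its exonic bases (7.33%) also belong to DEPP1 on the opposite strand. The counts of DEPP1 itself, 155, 86 and 89 for Control sh against 153, 168 and 243 for VprBP sh, were not lower after the knockdown (log2 fold change 0.58 ± 0.27 SE, edgeR adjusted p = 0.071). The DEPP1 value depended on Control sh replicate 1. It was 0.99 without that sample (edgeR adjusted p = 0.000733), and 0.43 or 0.37 without Control sh replicate 2 or 3.

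RASSF6, whose product binds MST kinases and the BAX activator MOAP1, went from 201, 237 and 262 counts to 11, 37 and 25. The normalized counts were 246 ± 12.5 and 23.3 ± 13.6 (SD, n = 3), with the VprBP sh samples spread widely at a low level. The log2 fold change was -3.40 (SE 0.31, edgeR adjusted p = 5.45e-06), and the depth-scaled ratio of the summed counts was 10.7 (95% exact interval 8.39 to 13.8, counting error only). RASSF6 (ENSG00000169435.14) spans 73571550 to 73620631 on the minus strand of chromosome 4, and no annotated gene overlaps it in GENCODE 44.

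RASSF10 was the N-terminal member that changed most. It encodes a coiled-coil protein linked to mitosis, and its gene is another known target of promoter methylation in tumors. The counts of 592, 691 and 729 for Control sh dropped to 208, 211 and 263, or 709 ± 36.2 and 218 ± 15.4 normalized counts (SD, n = 3). The samples of each group were tight and the groups far apart. The log2 fold change was -1.71 (SE 0.11, edgeR adjusted p = 5.72e-07). RASSF10 (ENSG00000189431.8) spans 13009316 to 13012119 on the plus strand of chromosome 11. The divergent lncRNA gene RASSF10-DT had 21, 16 and 11 counts against 5, 8 and 7, too few to pass the filter and be tested.

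**Figure D2:**
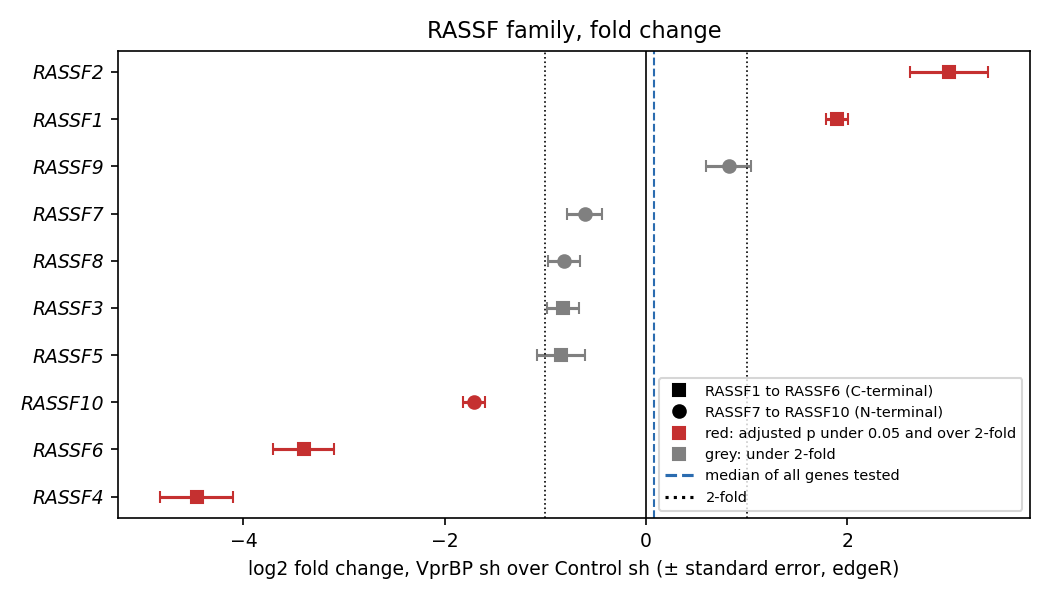
Log2 fold change of each RASSF gene in VprBP sh over Control sh, with the standard error from edgeR as bars, ordered from the largest rise to the largest fall. Squares are C-terminal and circles N-terminal members, red marks the 5 called genes, dotted lines stand at a 2-fold change and the dashed line at the median of all genes tested, 0.08.

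The remaining C-terminal members, RASSF3 and RASSF5, were lower in VprBP sh without reaching 2-fold. RASSF3, a small member tied to p53 through MDM2, had Control sh counts of 794, 557 and 700 against 386, 389 and 525 (log2 fold change -0.82 ± 0.16 SE, edgeR adjusted p = 0.000906). Its Control sh replicate 1, with 920 normalized counts, stood above the other 2 at 605 and 664. RASSF5, the effector through which RAP1 acts on integrins in lymphocytes, had Control sh counts of 583, 441 and 552 against 172, 363 and 473 (log2 fold change -0.84 ± 0.24 SE, edgeR adjusted p = 0.00923). Here VprBP sh replicate 1 was the low sample, at 192 normalized counts against 377 and 363. The size of the RASSF5 change rests in part on that sample. It was -0.60 without VprBP sh replicate 1 and -1.002 without VprBP sh replicate 2, where it was called.

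RASSF7, a centrosomal protein that inhibits MKK7 signalling to JNK, had the highest counts of the family in Control sh, at 1484, 1317 and 1408. In VprBP sh it had 642, 1063 and 1452 counts, and its mean of 978 normalized counts lay under the 1086 of RASSF1. The raw counts of the groups overlap. After scaling they did not, with 1335 to 1720 normalized counts against 717 to 1113. The log2 fold change was -0.61 (SE 0.17, edgeR adjusted p = 0.00864). VprBP sh replicate 1 was again the low sample, and without it the log2 fold change was -0.43.

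RASSF8, which acts at adherens junctions, went from 371, 356 and 370 counts to 236, 214 and 234. Its log2 fold change was -0.82 (SE 0.16, edgeR adjusted p = 0.00113), and the normalized counts of 351 to 430 and 179 to 263 did not overlap. The antisense gene RASSF8-AS1 shares 3.03% of the exonic bases of RASSF8 and had Control sh counts of 50, 40 and 40 against 21, 26 and 41 (log2 fold change -0.75 ± 0.28 SE, edgeR adjusted p = 0.0325). RASSF9, first described as a binder of the peptide-amidating enzyme PAM, was the only N-terminal member that was higher in VprBP sh. Its counts of 32, 38 and 47 compared with 75, 65 and 88 after the knockdown (log2 fold change 0.82 ± 0.22 SE, edgeR adjusted p = 0.00718). With scaling by library size alone it was 1.03 and called.

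To compare members with each other, normalized counts were divided by the exonic length of each gene. On this per-kb scale the order of levels in Control sh was RASSF7 (595 ± 79.7), RASSF10 (253 ± 12.9), RASSF3 (172 ± 39.5), RASSF5 (80.2 ± 14.8), RASSF1 (78.9 ± 1.59), RASSF8 (48.2 ± 4.91), RASSF6 (37.2 ± 1.88), RASSF4 (18.6 ± 2.39), RASSF9 (7.43 ± 0.679) and RASSF2 (1.47 ± 0.947), each as mean ± SD of normalized counts per kb with n = 3. Of neighbours in this order, only RASSF5 and RASSF1 had overlapping sample values. In VprBP sh the order became RASSF7 (389 ± 90.0), RASSF1 (295 ± 28.0), RASSF3 (97.3 ± 3.77), RASSF10 (77.6 ± 5.48), RASSF5 (44.5 ± 14.8), RASSF8 (27.5 ± 5.21), RASSF9 (13.2 ± 1.70), RASSF2 (12.4 ± 1.21), RASSF6 (3.51 ± 2.05) and RASSF4 (0.828 ± 0.552). There, the values overlapped between RASSF7 and RASSF1, between RASSF5 and RASSF8, and between RASSF9 and RASSF2. RASSF1 thus moved from the fifth place to the second, while RASSF4 and RASSF6 took the last places.

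The summed per-kb level of the family went from 1292 ± 123 (SD, n = 3) with the control shRNA down to 961 ± 120 (SD, n = 3), with ranges of 1199 to 1432 and 824 to 1045 that did not overlap. RASSF7 made up the largest share in both groups, 45.9% ± 1.76 and 40.1% ± 4.83 (SD, n = 3). The share of RASSF1 went from 6.15% ± 0.645 to 30.8% ± 1.26 (SD, n = 3), and that of RASSF10 from 19.7% ± 2.33 to 8.21% ± 1.61 (SD, n = 3). The C-terminal members together held 30.0% ± 1.49 of the family level before and 47.3% ± 1.94 after the knockdown (SD, n = 3), although 4 of these 6 genes were lower in VprBP sh. Their summed level was 353 to 443 per kb in the Control sh samples, overlapping the 408 to 488 under VprBP sh, while that of the N-terminal members went from 829 to 989 down to 416 to 557. These shares do not depend on the scaling between samples, but they do depend on the lengths used, which merge all annotated isoforms of a gene. In bulk RNA, fewer cells that express a gene and less RNA per cell cannot be told apart.

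**Figure D3:**
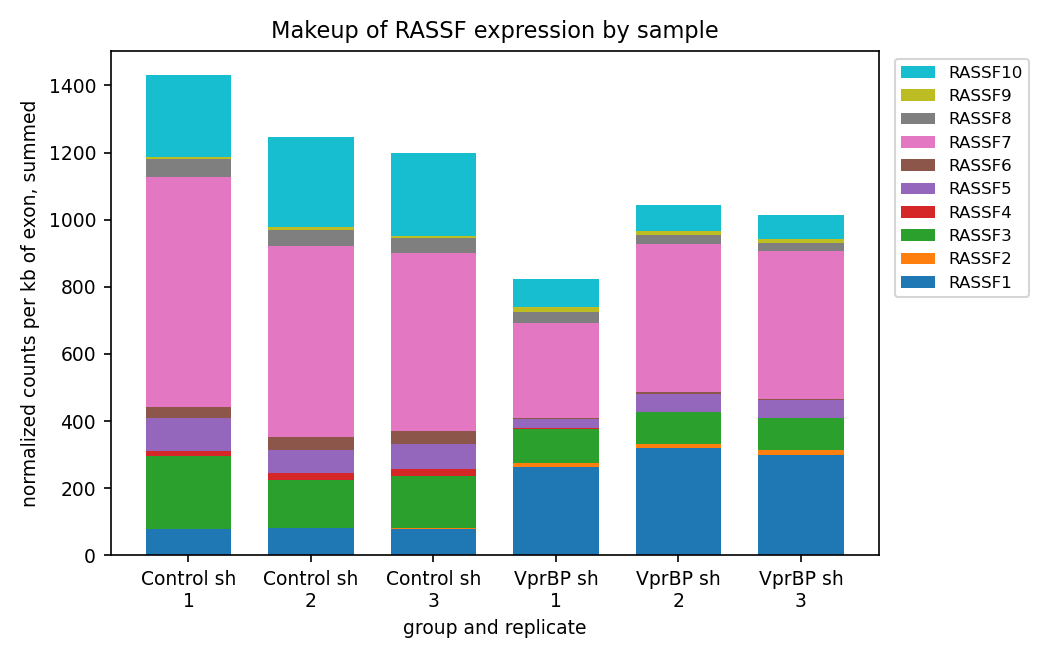
Normalized counts per kb of exon of the 10 RASSF genes, stacked for each of the 3 Control sh and 3 VprBP sh samples. The RASSF1 segment at the foot of the bars widens from a mean share of 6.15% to one of 30.8% of the family level, while the RASSF10 segment at the top shrinks.

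Genes of the proteins that RASSF members bind were read from the same fit. They had been listed by role with earlier results of these data known. Of 27 partner genes, 6 were called, 1 up and 5 down, which is 22.2% where 46.4% of all genes tested were called. The median log2 fold change of the 27 was 0.02, against 0.08 for all genes tested. The split depended on the scaling, with 1 up and 6 down under TMM factors, 0 up and 7 down under DESeq2, and 3 up and 4 down with library size alone.

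Among 7 genes of the MST kinases and the Hippo core, 2 fell and none rose. This is 28.6% called, where 46.4% of all genes tested were called and 22% were called down. The adaptor SAV1, which bears a SARAH domain itself, went from 2415 ± 55.5 to 989 ± 41.5 normalized counts (SD, n = 3) (log2 fold change -1.29 ± 0.08 SE, edgeR adjusted p = 3.66e-07). STK3, which encodes MST2, went from 1556 ± 67.0 to 644 ± 80.7 (log2 fold change -1.27 ± 0.11 SE, edgeR adjusted p = 3.72e-06). Its paralog STK4, which encodes MST1, had a log2 fold change of -0.89 (SE 0.08, edgeR adjusted p = 5.31e-06) and reached 2-fold only under DESeq2. The remaining LATS1, LATS2, MOB1A and MOB1B lay between -0.66 and 0.05 on the log2 scale, with an adjusted p under 0.05 for LATS1 alone, a gene named after its value was seen.

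Among 7 RAS-family GTPases, 3 fell and none rose. This is 42.9% called, where 46.4% of all genes tested were called and 22% were called down. The largest falls were in RRAS and RRAS2, whose products act on integrin adhesion. RRAS went from 2626 ± 148 to 181 ± 45.9 normalized counts (SD, n = 3) (log2 fold change -3.85 ± 0.17 SE, edgeR adjusted p = 4.49e-08). RRAS2 went from 5676 ± 275 to 562 ± 29 (log2 fold change -3.34 ± 0.09 SE, edgeR adjusted p = 2.18e-09). HRAS had a log2 fold change of -1.16 (SE 0.14, edgeR adjusted p = 3.92e-05), which was -0.95 with library size alone. RAP1B was lower by less than 2-fold, while NRAS, RAP1A and MRAS did not pass the p-value cutoff, all 4 named after their values were seen.

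Of 9 death, cell cycle and microtubule partners of the C-terminal members, 1 was called, upward. This is 11.1%, where 46.4% of all genes tested were called and 24.5% were called up. DAXX, which is part of a complex with RASSF1 and MDM2, rose from 1330 ± 43.3 to 2862 ± 92.5 normalized counts (SD, n = 3) (log2 fold change 1.11 ± 0.08 SE, edgeR adjusted p = 8.4e-07), and was under 2-fold, at 0.98, in the DESeq2 fit. All 9 genes had an adjusted p-value under 0.05, as 76.4% of all genes tested did, with MOAP1, MAP1S, CNKSR1, CDC20 and MDM2 also higher and BAX, PAWR and AURKA lower in VprBP sh, all 8 likewise named after their values were seen. MDM2 passed narrowly (edgeR adjusted p = 0.0492) and did not pass with TMM factors (0.1305), under DESeq2 (0.155), without the filter on low counts (0.0581), with replicates 2 and 3 summed (0.1105), or without Control sh replicate 2 (0.1696) or 3 (0.142) or VprBP sh replicate 1 (0.1797) or 2 (0.0512). None of the 4 partners of the N-terminal members was called, where 46.4% of all genes tested were. PPP1R13B and TP53BP2, which encode the p53-binding proteins ASPP1 and ASPP2, had log2 fold changes of 0.46 and 0.30 (adjusted p = 0.0129 and 0.0177 from edgeR), MAP2K7 0.17 (adjusted p = 0.159) and PAM -0.01 (adjusted p = 0.941).

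**Figure D4:**
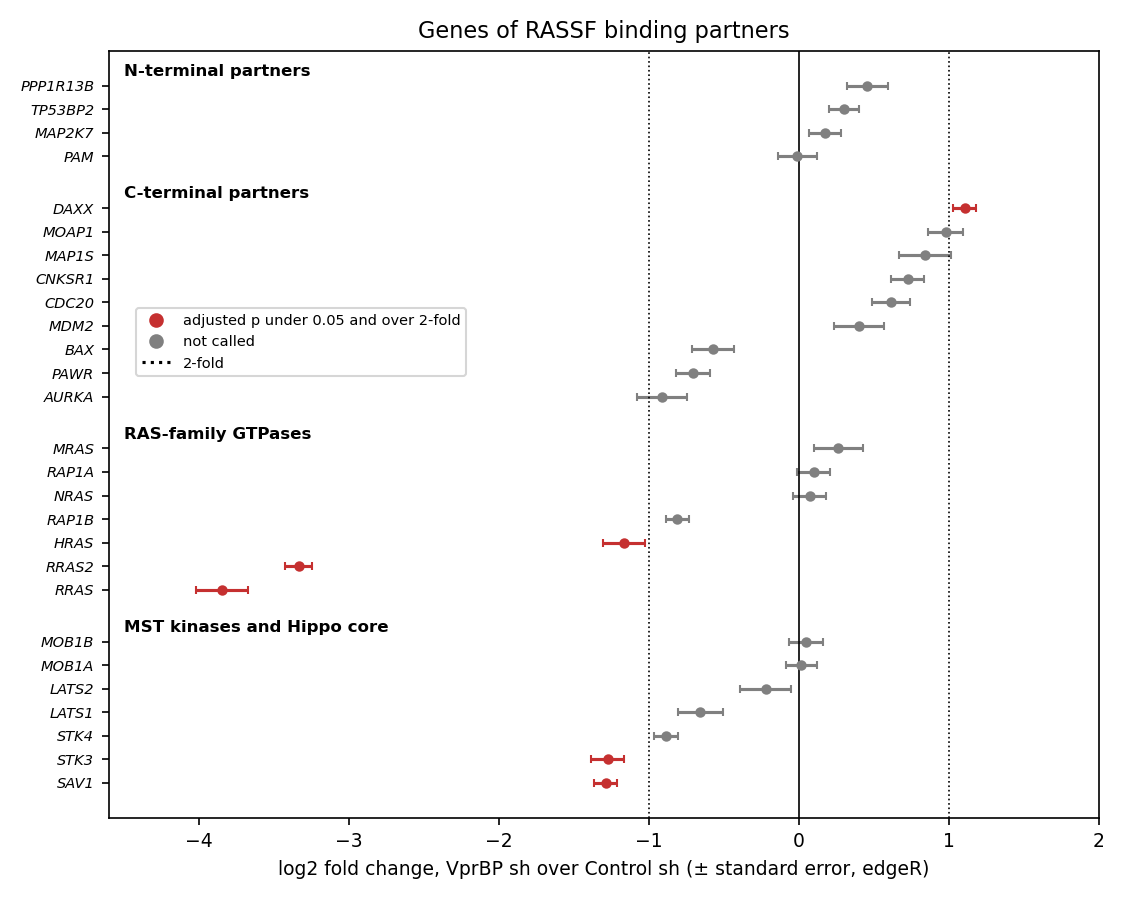
Log2 fold change of the 27 partner genes in VprBP sh over Control sh, grouped by role, with the standard error from edgeR as bars. Red marks the 6 called genes, of which RRAS and RRAS2 lie below -3 and DAXX is the only one above 1.

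The nearest protein-coding genes of the table on either side of the members were compared with them. Of 19 such neighbours, 18 were tested and 7 were called, 3 up and 4 down, or 38.9% where 46.4% of all genes tested were called. The split was 2 up and 4 down under TMM factors and 2 up and 5 down under DESeq2. The neighbour had the same sign as its member in 9 of 18 cases. Gaps between member and neighbour ranged from 0 to 2197 kb, and the signs counted include those of neighbours that did not pass the p-value cutoff. ZMYND10, a gene of motile cilia which lies 0.13 kb beyond the 5′ end of RASSF1, rose with it from 5, 2 and 2 counts to 18, 32 and 37 (log2 fold change 3.05, SE 0.47, edgeR adjusted p = 0.00023), with a log2 fold change of 3.67 without Control sh replicate 1. On the other side, TUSC2, also named as a tumor suppressor gene of this region, had a log2 fold change of -0.12 (SE 0.10, edgeR adjusted p = 0.284). RASSF1 thus had 1 neighbour that rose and 1 that did not pass the test.

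The prion protein gene PRNP, next to RASSF2, fell from 12095 ± 1664 to 1622 ± 169 normalized counts (SD, n = 3), against the rise of RASSF2. SLC23A2, on its other side, had a log2 fold change of -0.55 (adjusted p = 0.00109 from edgeR). Beside RASSF6, the chemokine gene CXCL8 went from 1680, 682 and 730 counts to 21, 1 and 3 (log2 fold change -7.11 ± 0.70 SE, edgeR adjusted p = 1.07e-05). The size of its fall varied with replicate 1 of each group, at -6.46 without that of Control sh and -9.22 without that of VprBP sh on the log2 scale. CXCL8 was called in all 13 alternatives that gave it a value. ALB had at most 4 counts in any sample and was not tested. RASSF10 lies between TEAD1, which encodes a partner of YAP, and the clock gene ARNTL. TEAD1 had a log2 fold change of -0.82 and ARNTL of 1.05 (adjusted p = 3.63e-05 and 0.000448 from edgeR), and ARNTL was not called in 6 of 14 alternatives, among them those without Control sh replicate 2 (0.90) or VprBP sh replicate 1 (0.95). ZNF22, beside RASSF4, had a log2 fold change of -0.81 (adjusted p = 0.0013 from edgeR). TEAD1 and ZNF22 thus had the sign of their members, and PRNP and ARNTL the opposite one.

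**Figure D5:**
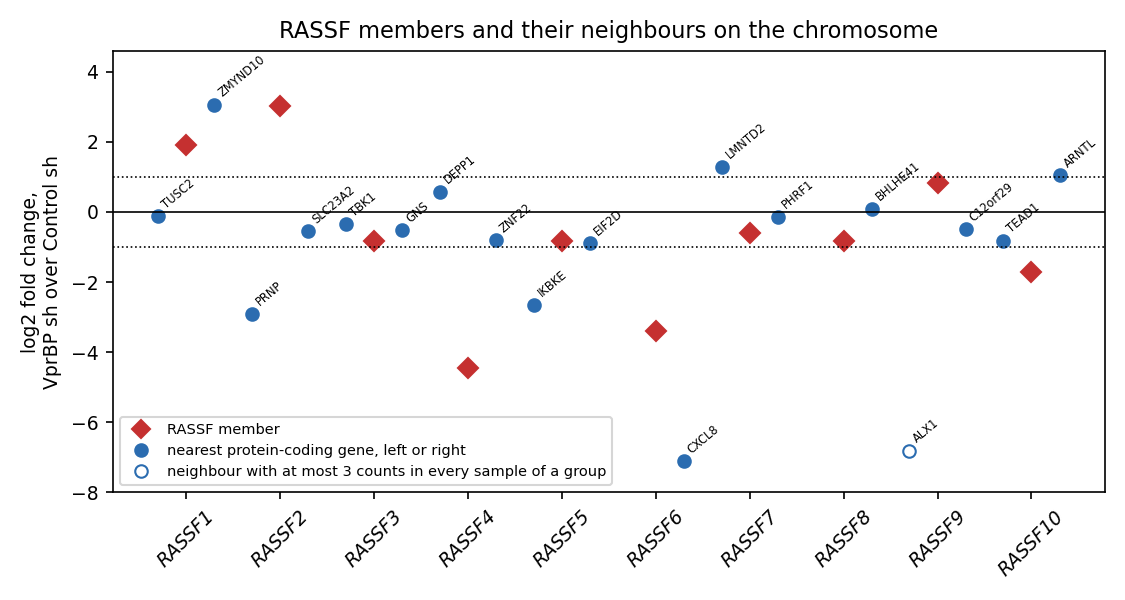
Log2 fold change of each RASSF gene (diamonds) and of the nearest protein-coding gene on its left and right (circles), from edgeR. Dotted lines stand at a 2-fold change, the open circle marks a neighbour with 0 counts in every VprBP sh sample whose fitted value depends on the prior count, and 9 of the 18 circles have the sign of their diamond.

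Genes with the pattern most like that of RASSF4 and RASSF6, the called members with the largest changes, were sought over the 6 samples by Euclidean distance of log2(normalized counts + 1). For RASSF4 these were TSPAN7 (distance 1.19), NPM2 (1.20) and RETREG1 (1.25). TSPAN7, for example, had 144 ± 23 normalized counts (SD, n = 3) in Control sh and a mean of 5.09 in VprBP sh. For RASSF6 they were NKX2-8 (0.662), AIFM3 (0.946) and GCOM1 (0.997). NKX2-8 had 255 ± 15.5 normalized counts (SD, n = 3) in Control sh and a mean of 23.2 in VprBP sh, almost the levels of RASSF6. Such likeness over 6 samples in 2 groups rests mainly on the difference between the groups.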

How the data were processed

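Per the study's methods, reads were aligned to hg38 with STAR and quantified per gene. The authors deposited estimated counts per gene, neither normalized nor pooled (56.7% to 61.5% of values per sample are whole), for genes whose 6 values add up to 10 or more. Here they were rounded to whole counts and tested with edgeR 4.0.16 in R 4.3.3, by its quasi-likelihood test with upper quartile factors and its filter on low counts (minimum 10), over 16756 genes and all 6 samples, with Benjamini-Hochberg adjustment. The study itself used Partek Flow's own test. The standard error (SE) is the absolute log2 fold change over the root of F. For normalized counts, effective library sizes were brought to their mean, with 3 counts equal to 2.30 to 3.48. Exonic lengths, overlaps and transcript starts came from GENCODE 44, and the last base of a gene is the deposited stop minus 1. Intervals on ratios of summed counts are exact binomial intervals.

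The design had assumed whole counts. Groups and replicate numbers came from the sample titles. Members and gene lists were chosen with earlier results of these data known. Named were all members and genes named after them, DCAF1, markers, neighbours of called members and, per partner group, the called genes with the largest changes (3 at most, whose higher group averages 100 normalized counts or more), with groups of at most 4 genes and SARAH-domain partners in full. Likeness was measured for the 2 called members with the largest changes at that level. Alternatives were TMM factors, library size alone, DESeq2 1.42.0, limma-voom (limma 3.58.1), other filters, a replicate block, a test against 2-fold, leaving out each replicate and summing replicates 2 and 3. A gene of the partner and neighbour lists is not reported here. The tests were tried on simulated data. G361 is the line in the labels, whose source name is LD611.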

Additional observations from a re-analysis of the deposited data

How the results depend on the processing

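All 10 members kept their direction in every alternative that gave a value. RASSF1, RASSF6 and RASSF10 were called in every alternative, and so were RASSF2 and RASSF4 except where 10 counts were required in each sample, under which they were not tested. That filter left 3 of 8 members, 4 of 15 neighbours and 4690 of 13103 genes called, since it removes genes that are nearly off in a group. With the p-value cutoff alone at any fold change, the counts were 10 members, 19 partner genes, 14 neighbours and 12800 genes. RASSF5 was also called with replicates 2 and 3 summed (log2 fold change -1.06) and without VprBP sh replicate 2 (-1.002), and RASSF9 with library size alone (1.03), which split the 6 called members into 3 up and 3 down. Leaving out 1 replicate at a time called 5 to 6 members, 6 to 9 partner genes, 6 to 7 neighbours and 7949 to 8142 genes, and moved the log2 fold change of DCAF1 between -0.82 and -0.46, of RASSF2 between 2.67 and 3.63 and of RASSF6 between -3.92 and -3.14. Library size alone shifted the median of all genes from 0.08 to 0.29 on the log2 scale and DCAF1 to -0.37 (edgeR adjusted p = 0.0851), and with replicates 2 and 3 summed DCAF1 was at -0.46 (edgeR adjusted p = 0.0839).

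Same-numbered samples did not deviate together (correlations of -0.17, -0.05 and -0.12 over 12133 genes). With so few samples per group, these correlations cannot decide whether the numbers pair the samples. With a replicate block 5 members, 6 partner genes, 7 neighbours and 7686 genes were called, and the log2 fold change of DCAF1 was -0.60. At this depth the level of RASSF2 in Control sh and of RASSF4 in VprBP sh rests on 25 counts each.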
